A study of Mus musculus with 15 samples.

Results

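Untreated Clic4-knockout cells and untreated wild-type cells of the 6DT1 line were compared over all genes, in 4 libraries of each genotype out of 15 libraries in the series. The 6DT1 line was derived from a mammary cancer of the mouse and has the FVB/N1 background. The libraries were chosen by title: knockout replicates 1 to 4 and wild-type replicates 9 to 12, none of which received hydrogen peroxide (H2O2). The other 7 libraries, from both genotypes after 24 h in 1 µM H2O2, shared the estimate of spread in the model and are otherwise used in a single paragraph near the end. For replicate 9 the genotype field alone read knockout, against 3 other label fields that give untreated wild type, and it was treated as wild type. How many knockout clones were used, how the gene was disrupted and whether the replicates were separate cultures is not given in the labels. The p-values therefore measure spread between these libraries, which may be technical, and an effect of losing CLIC4 cannot be told apart from differences between the cell clones behind each genotype.

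CLIC4 belongs to the chloride intracellular channel family, whose members resemble glutathione S-transferases in fold and occur both as soluble proteins and at membranes. It has been linked to stress signalling, to movement between cytoplasm and nucleus, and to the organisation of the actin cortex and of tubular membranes. Wild-type libraries held 327, 324, 318 and 316 CPM of Clic4 transcript and knockout libraries 75.1, 74, 72 and 64.2 CPM (counts per M counts after TMM scaling; libraries are always listed as wild type 9, 10, 11, 12 and knockout 1, 2, 3, 4). The groups did not overlap (log2 difference -2.17, SE 0.043, adjusted p = 9.88e-26), and replicate 9 carried the wild-type level. The knockout cells thus still held Clic4 transcript, and gene counts do not show whether it can be translated.

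Depth was alike in the 8 libraries, from 13.27 to 16.03 M counts, and 13085 genes with enough counts were tested. Of the 12 mammary epithelial markers listed, Krt8, Krt18, Krt19 and the milk protein gene Csn3 were present in every library, Krt8 at 611 to 674 CPM. The other 8, among them the epithelial adhesion genes Epcam and Cdh1, stayed under 1 CPM in all 8 libraries. All 7 basal markers and all 5 adipocyte markers were under 1 CPM too, as were 6 of 9 fibroblast markers, with Pdgfra as the main exception at 18.4, 20.5, 18.2 and 21 CPM in wild type and 10.3, 10.7, 10.1 and 12.9 CPM in knockout cells. Endothelial markers summed to 23.1 to 25 CPM in wild type and 3.37 to 4.11 CPM in the knockout, in wild type nearly all of it from Vwf, with Cldn5 and Emcn at 0. Cdh5 went the other way, at 0.743, 0.638, 0.696 and 0.765 CPM in wild type and 1.46, 2.26, 1.27 and 1.67 CPM in the knockout.

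A pair of libraries stood apart. Wild-type replicate 9 held 50.6 CPM of the neutrophil gene S100a9, 19.4 CPM of phagocyte lysozyme Lyz2 and 4.52 CPM of the pan-leukocyte gene Ptprc. S100a9 and Ptprc were at 0 in the other 7 libraries. Replicate 9 also held 2.9 CPM of the fibroblast marker Pdgfrb and 2.36 CPM of the endothelial marker Pecam1, against at most 0.0708 and 0.255 CPM elsewhere. All 7 erythroid markers were under 1 CPM in all 8 libraries, but Hbb-bs was at 0.473 CPM in replicate 9 and at 0 in the other 7. The 14 leukocyte markers summed to 411 to 543 CPM in wild type, highest in replicate 9, and to 275 to 310 CPM in the knockout, mostly from Cd68. Knockout replicate 4 held lower levels of many inflammatory genes than the other 3 knockout libraries. Among the 868 genes that changed at least 2-fold and reached 5 CPM, replicate 4 lay far below the other knockout libraries in 18 and far above in 16. Wild-type replicate 9 lay far above its group in 17, and the other 6 libraries each lay far out on either side in at most 10. For some genes, values that rest on these libraries are given with and without them, and for others with all libraries only. Their part in each result was otherwise not tested. In bulk RNA, fewer cells of a kind and less RNA per cell cannot be told apart.

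Of the 13085 genes, 8746 (66.8%) differed between the genotypes at an adjusted p under 0.05 by edgeR's quasi-likelihood test, 4439 of them higher (33.9%) and 4307 lower (32.9%) in the knockout. Of these, 1745 (13.3%) also differed at least 2-fold, 890 of them (6.8%) higher and 855 (6.53%) lower in the knockout. To go through this list by what the proteins do, 95 gene families were sorted into transcription factors, surface and membrane proteins, secreted proteins and intracellular families. Counts of single families below are to be read beside the shares of all genes just given. Transcription factors as a class sat close to the whole table: 85 of 670 tested (12.7%) changed at least 2-fold, 49 higher and 36 lower. The ZFP zinc fingers made up 326 of the 670, and 20 of them (6.13%) changed at least 2-fold. The share among the remaining factors was therefore higher than 12.7%. Of 574 surface and membrane proteins 164 (28.6%) did so, 75 higher and 89 lower. Secreted proteins moved most often, 153 of 317 (48.3%), with 93 higher and 60 lower. Intracellular families lay between, with 148 of 631 (23.5%), 64 higher and 84 lower. A gene that is silent in 1 genotype entered the test only through the other, and many secreted genes are weakly expressed (median 8.51 CPM against 28.1 CPM over all tested genes), so these shares describe the tested members only. Among genes that reached 5 CPM in the higher genotype the order was the same: 39 of 524 factors (7.44%), 75 of 429 surface proteins (17.5%) and 83 of 198 secreted proteins (41.9%), against 868 of 10416 genes (8.33%). The ZFP zinc fingers were 238 of these 524 factors, with 7 changed (2.94%). This filter also admits a gene through its higher genotype, so it sets aside weak genes but does not remove that selection.

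**Figure D1:**
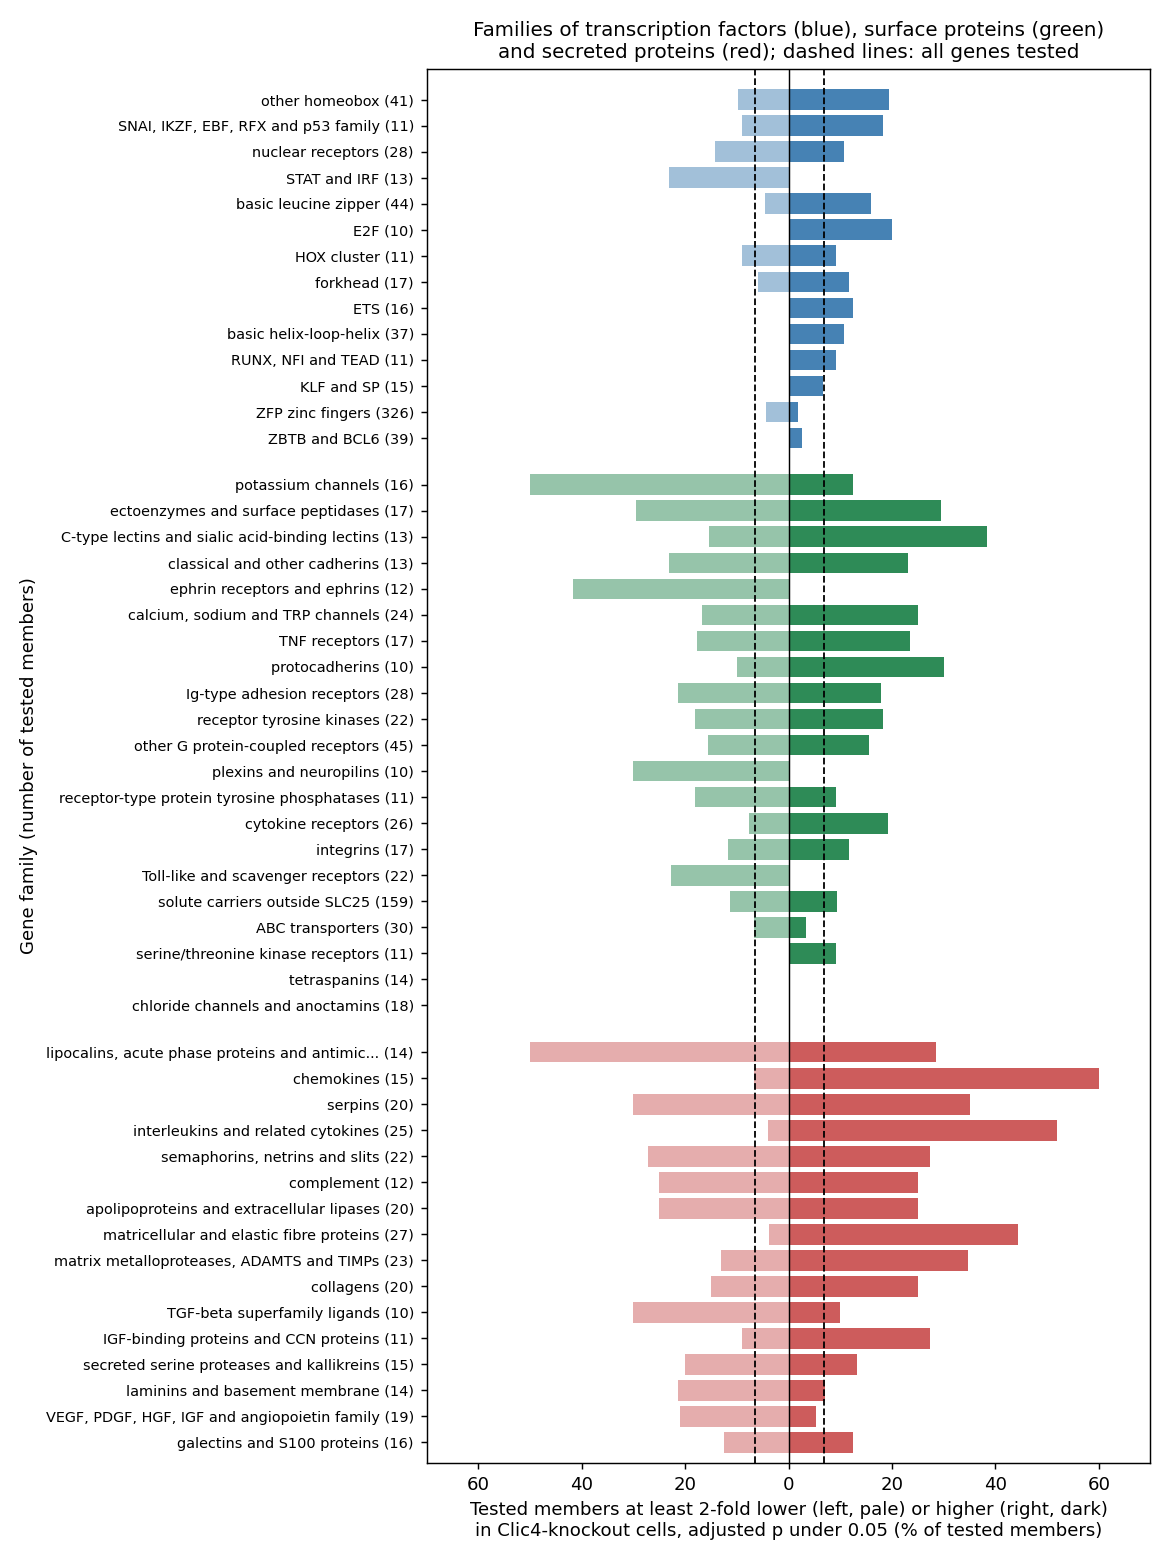
Share of tested members of each family with 10 or more tested members that were at least 2-fold lower (left, pale bars) or higher (right, dark bars) in untreated Clic4-knockout cells at an adjusted p under 0.05; x axis in % of tested members, y axis the family with its number of tested members, dashed lines the shares over all genes tested (6.53% lower, 6.8% higher). Chemokines and interleukins lean to the right (9 of 15 and 13 of 25 higher), potassium channels and ephrin receptors to the left (8 of 16 and 5 of 12 lower), and the ZFP zinc fingers stay inside the dashed lines. Weakly expressed members are included: at 5 CPM or more, 4 of 6 chemokines and 5 of 13 interleukins were higher. At that level 0 of 5 potassium channels were lower and 1 was higher, and 2 of 8 ephrin receptors and ephrins were lower.

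Among transcription factor genes, the members of the NF-kB and NFAT family that changed at least 2-fold were higher, and those of the STAT and IRF family were lower. NF-kB dimers turn on genes of inflammation and survival, and Relb and Nfkb2 encode the pair of the non-canonical branch. Relb stood at 6.89, 7.08, 6.33 and 7.46 CPM in wild type and at 55.7, 45.9, 55.8 and 24.7 CPM in the knockout (log2 difference 2.71, SE 0.25, adjusted p = 1.20e-06). Nfkb2 stood at 39.2, 41.1, 39.9 and 43.2 CPM and at 127, 108, 122 and 71.6 CPM (log2 difference 1.39, SE 0.15, adjusted p = 4.70e-06). Knockout replicate 4 was the lowest knockout library for both and still lay above every wild-type library; without it the log2 differences were 2.91 and 1.54. Of the 9 tested members of this family 5 were higher and 2 lower, and the third that reached 2-fold was Rel (mean ± SD, n = 4 per genotype here and below: 6.44 ± 0.811 to 13.4 ± 2.1 CPM). Of the 13 STAT and IRF genes, 8 were lower and 3 higher, and all 3 that changed at least 2-fold fell. These were Stat2, Irf9 and Irf7, which carry the answer to type I interferon: Stat2 and Irf9 join in 1 complex, and Irf7 amplifies interferon production. Stat2 stood at 46.8, 50.2, 54.4 and 54 CPM in wild type and 16.9, 21.1, 23 and 24.8 CPM in the knockout (log2 difference -1.25, SE 0.08, adjusted p = 3.31e-12). Irf9 fell from 51.7 ± 1.79 to 22.3 ± 1.88 CPM and Irf7 from 42.4 ± 4.81 to 17.4 ± 3.8 CPM, with knockout replicate 4 the highest knockout library for both and still below all wild-type libraries.

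The start regions of these genes were read for letters that NF-kB and interferon complexes are known to bind. They are RefSeq promoters on GRCm38.p6, from 250 bases before to 50 bases after the gene start, given here as stretches around the first match, 5′ to 3′ on the gene's own strand. Capitals mark GGGANNNNCC or its reverse complement in the first 3 and GAAANNGAAA or its reverse complement in the last 3, with overlapping matches run together. The stretches lie at chr5:90891110-90891209 (Cxcl1, plus strand), chr19:46304653-46304752 (Nfkb2, plus strand), chr11:23771007-23771106 (Rel, minus strand), chr10:128270248-128270330 (Stat2, plus strand), chr3:142530238-142530337 (Gbp7, plus strand) and chr3:142559954-142560053 (Gbp3, plus strand). Only genes that held a match could be shown, and for each motif the 3 with the highest mean CPM in either genotype were taken. The first 3 came from chemokine, cytokine and NF-kB genes that rose at least 2-fold. The last 3 came from STAT, IRF, Schlafen, GBP, IRG and IFI200 genes that fell at least 2-fold. Cxcl1, Nfkb2 and Rel rose, while Stat2 and the interferon-inducible GTPase genes Gbp7 and Gbp3 fell.
Cxcl1: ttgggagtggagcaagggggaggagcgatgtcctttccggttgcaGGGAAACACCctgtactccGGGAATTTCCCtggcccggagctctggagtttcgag
Nfkb2: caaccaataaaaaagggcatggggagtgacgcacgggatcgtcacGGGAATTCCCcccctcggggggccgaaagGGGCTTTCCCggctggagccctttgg
Rel: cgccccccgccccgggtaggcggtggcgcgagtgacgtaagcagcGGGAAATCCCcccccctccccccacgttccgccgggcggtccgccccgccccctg
Stat2: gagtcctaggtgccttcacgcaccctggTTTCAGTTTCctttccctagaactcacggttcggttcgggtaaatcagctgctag
Gbp7: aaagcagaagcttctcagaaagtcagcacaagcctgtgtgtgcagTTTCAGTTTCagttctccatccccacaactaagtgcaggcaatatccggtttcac
Gbp3: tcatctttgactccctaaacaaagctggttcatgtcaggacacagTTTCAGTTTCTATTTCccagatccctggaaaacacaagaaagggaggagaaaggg

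These letters are common for the first motif and rare for the second. GGGANNNNCC, searched on both strands, was present in 2912 of the 9579 tested genes that had a promoter entry (30.4%), in 213 of 610 genes at least 2-fold higher (34.9%) and in 176 of 586 at least 2-fold lower (30.0%). It was present in 6 of the 14 chemokine and cytokine genes that rose at least 2-fold and had an entry (Ccl20, Cxcl1, Cxcl2, Cxcl3, Il1rn and Tnf). That share, 42.9%, rests on 14 genes and was not tested against the 30.4% of all promoters. The letters were also present in Nfkb2 and Rel, the 2 of 3 risen NF-kB genes with an entry. Relb had no entry. GAAANNGAAA was present in 354 of the 9579 promoters (3.7%), in 45 of the 586 lower genes (7.68%) and in 17 of the 610 higher genes (2.79%). Among the 10 Schlafen, GBP, IRG and IFI200 genes that fell at least 2-fold, 5 had an entry and 3 held the letters (Gbp3, Gbp7 and Ifi214). The 4 members of those families that rose at least 2-fold (Gbp5, Ifi205, Slfn8 and Slfn9) all had an entry and all held the letters. Within these few genes the match did not separate risen from fallen members. Among the 3 lower STAT and IRF genes Stat2 alone held them. A match is a string of letters in this window and not a measured binding site.

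E2F genes were mostly higher. E2F proteins switch on genes of DNA synthesis, and E2f7 and E2f8 are their late-acting repressors: 9 of the 10 E2F and partner genes were higher and none lower, and these 2 passed 2-fold. E2f7 stood at 8.51, 10.5, 10.6 and 9.19 CPM in wild type and 27.3, 26.6, 22.8 and 21.6 CPM in the knockout (log2 difference 1.34, SE 0.10, adjusted p = 2.91e-11). E2f8 rose from 27.2 ± 1.09 to 60.8 ± 3.13 CPM (log2 1.16). Foxm1, a forkhead factor that drives genes of the G2 and M phases, stood at 39.4, 36.9, 36.9 and 34.8 CPM and 112, 108, 107 and 93.5 CPM (log2 difference 1.51, SE 0.054, adjusted p = 1.29e-19), and Foxp1, a forkhead repressor, rose from 29.4 ± 1.14 to 62.6 ± 0.958 CPM. Of 17 forkhead genes 8 were higher and 2 lower. Of 37 helix-loop-helix factors 19 were higher and 11 lower, and 4 reached 2-fold, a share near the 13.3% of all genes. The 2 rule-named ones were Mxd3, a MAX partner of proliferating cells (1.98 ± 0.306 to 7.44 ± 0.623 CPM), and Twist1, a driver of mesenchymal traits (7.59 ± 0.436 to 28.8 ± 2.5 CPM).

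Several factors known for one lineage appeared in, or vanished from, a line that is labelled mammary. Pax5, the commitment factor of B lymphocytes, stood at 0.473, 0.354, 0.626 and 0.255 CPM in wild type and 18.5, 15.3, 17.5 and 17.6 CPM in the knockout (log2 difference 5.31, SE 0.17, adjusted p = 1.37e-20). Batf2, a leucine-zipper factor known from interferon-treated macrophages, rose from 0.302 ± 0.153 to 11 ± 1.25 CPM (log2 5.13) while the STAT and IRF genes above fell. The GATA family split: Gata2 rose from 27.4 ± 1.1 to 69.9 ± 2.81 CPM (log2 difference 1.35, SE 0.057, adjusted p = 5.83e-18), whereas Gata4 went from 8.69 ± 0.757 CPM to 0 counts in all 4 knockout libraries, at least 169-fold lower with the knockout group at 3 counts. Nuclear receptors, the ligand-activated factors, changed at least 2-fold in 7 of 28 cases. Nr4a1, an immediate early orphan receptor, rose from 1.78 ± 0.240 to 5.02 ± 0.440 CPM, and Nr1h5, a relative of the bile acid receptor, from 5.14 ± 0.965 to 12.1 ± 1.35 CPM. Thrb, a thyroid hormone receptor, went from 12.3 ± 0.989 CPM to 0 counts.

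The homeobox gene Irx1 (2.89 ± 0.378 to 8.7 ± 1.35 CPM), the circadian leucine-zipper factor Dbp (8.65 ± 1.13 to 19.3 ± 1.5 CPM), the ETS repressor Etv3 (32.8 ± 0.637 to 66.9 ± 6.6 CPM), Klf11 (3.07 ± 0.645 to 7.53 ± 1.17 CPM), the ciliary gene regulator Rfx2 (6.79 ± 0.292 to 17.9 ± 1.99 CPM), the lymphoid factor Ikzf2 (2.72 ± 0.397 to 8.31 ± 1.09 CPM) and Egr3 (2.11 ± 0.152 to 6.9 ± 0.714 CPM) were also at least 2-fold higher with no overlap of replicates. The leucine-zipper factor Maf fell from 8.41 ± 0.618 to 3.2 ± 0.675 CPM (log2 -1.39). The largest family, 326 tested ZFP zinc fingers, moved little: 94 were higher, 80 lower and 20 (6.13%) changed at least 2-fold. Its extremes were still large. Zfp704 stood at 13.8, 14.7, 16.3 and 15.9 CPM in wild type and 0.689, 1.23, 0.696 and 0.401 CPM in the knockout (log2 difference -4.32, SE 0.16, adjusted p = 3.03e-19), and Zfp518b fell from 7.58 ± 0.188 to 0.912 ± 0.360 CPM. Zfp960 (1.71 ± 0.348 to 6.78 ± 0.538 CPM) and Zfp97 (3.75 ± 0.726 to 8.41 ± 0.961 CPM) rose; many ZFP genes are near-copies of each other, so single members are uncertain. 

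**Figure D2:**
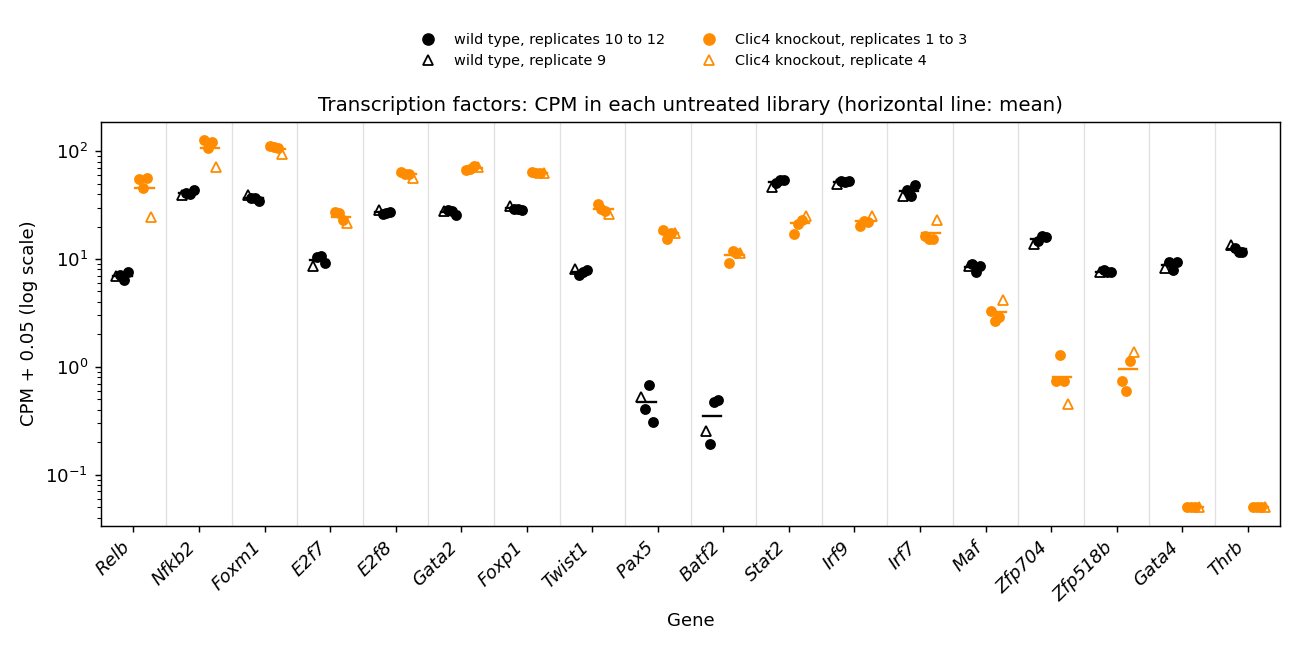
CPM plus 0.05 on a log axis (y) of 18 transcription factors (x) in each untreated library; black is wild type, orange is Clic4 knockout, open triangles are the libraries that stood apart (wild-type replicate 9, knockout replicate 4) and horizontal lines are group means. Points of the genotypes do not overlap for any of the 18 genes, and Gata4 and Thrb sit at 0 counts in all knockout libraries.

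At the cell surface, receptors for growth factors and cytokines moved in both directions. Of 22 receptor tyrosine kinases 8 were higher and 10 lower. Ddr2, a kinase receptor for fibrillar collagen, stood at 155, 158, 154 and 142 CPM in wild type and 464, 447, 435 and 464 CPM in the knockout (log2 difference 1.58, SE 0.043, adjusted p = 2.31e-22). Flt1, a VEGF receptor that can act as a decoy, stood at 68.2, 68.4, 65.6 and 65.9 CPM and 201, 191, 176 and 193 CPM (log2 difference 1.5, SE 0.044, adjusted p = 1.14e-21). Ptk7, a pseudokinase of planar cell polarity, went the other way, 58.9, 63.6, 56.7 and 63 CPM in wild type and 8.88, 8.28, 10.8 and 8.21 CPM in the knockout (log2 difference -2.74, SE 0.069, adjusted p = 3.19e-23). All 3 were separated by more than 2-fold between the nearest libraries. No ephrin receptor or ephrin was at least 2-fold higher and 5 of 12 were at least 2-fold lower, or 3 without wild-type replicate 9. Ephb2 and Ephb6, which read ephrins on neighbouring cells, had 0 counts in the knockout against 9.44 ± 1.56 CPM and 8.21 ± 1.17 CPM in wild type.

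Cytokine and TNF receptors changed in both directions. Of 17 tested TNF receptors 4 were higher and 8 lower, with 4 and 3 at 2-fold, and of 26 cytokine receptors 11 were higher and 9 lower, with 5 and 2 at 2-fold. Cd40, which receives help signals from T cells, had 7 counts over the wild-type libraries and 1575 over the knockout ones, a ratio of 227, 95% interval 110.0 to 566 (log2 7.73, and 8.43 without wild-type replicate 12). Tnfrsf9, also a TNF receptor and named after its values were seen, stood at 12.7, 10.9, 11.5 and 11.8 CPM in wild type and 78.9, 65.7, 71 and 37.1 CPM in the knockout (log2 difference 2.42, SE 0.22, adjusted p = 1.04e-06). The death receptor gene Fas rose from 2.1 ± 0.374 to 12.2 ± 4.36 CPM, with 5.74 CPM in knockout replicate 4 against 13.6 CPM or more in the others; without that library its log2 difference was 2.76 against 2.52. Il2rg, the chain shared by several interleukin receptors, stood at 19.5, 15.3, 17.5 and 20.7 CPM and 82.6, 79.7, 71.6 and 60.1 CPM (log2 difference 2.01, SE 0.094, adjusted p = 1.79e-12), and Ifngr2, a chain of the interferon gamma receptor, rose from 14.9 ± 0.414 to 40.1 ± 4.95 CPM. Ccr4, a chemokine receptor of T cells, had 11 counts in wild type and 756 in the knockout (0.186 ± 0.0327 to 13 ± 0.737 CPM). Against this, the leptin receptor gene Lepr fell from 79.9 ± 2.82 to 14.2 ± 2.96 CPM (log2 difference -2.49, SE 0.093, adjusted p = 2.94e-14). Over the 14 leukocyte markers, whose sums are given above, 6 were at 0 in all 4 knockout libraries, Ptprc and S100a9 among them. Of the 5 markers tested 3 were lower and 0 higher. Cd68 stood at 381, 406, 386 and 430 CPM in wild type and 282, 268, 299 and 305 CPM in the knockout. Lcp1 stood at 31.1, 18.4, 19.6 and 20.3 CPM and 0.0766, 0, 0 and 0 CPM. Itgam stood at 6.48, 0.638, 1.6 and 1.02 CPM and 3.83, 3.83, 3.04 and 3.47 CPM. For Itgam, wild-type replicate 9 lay above the knockout and the other 3 below it. Its log2 difference was 0.53 (adjusted p = 0.381), and 1.69, which passed the test, without replicate 9. The part of leukocyte transcripts in these receptor levels was not tested.

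Receptors that act through G proteins changed in both directions. Of 45 tested outside the adhesion class, 7 were at least 2-fold higher and 7 at least 2-fold lower. F2rl2, a protease-activated receptor, had 2 counts in wild type and 404 in the knockout, a ratio of 204, 95% interval 56.1 to 1689, and Mrgprf rose from 1.2 ± 0.328 to 30.4 ± 6.45 CPM. The adenosine receptor gene Adora1 fell from 13.4 ± 1.31 to 0.942 ± 0.0603 CPM and the adrenergic receptor gene Adra1b from 7.45 ± 1.45 to 0.470 ± 0.192 CPM. In the adhesion class the related latrophilins parted: Adgrl1 stood at 3.92, 3.54, 4.03 and 4.02 CPM in wild type and 16.1, 15.6, 16.2 and 14.4 CPM in the knockout, and Adgrl2 at 85.3, 89.5, 84.3 and 82.4 CPM and 4.14, 3.56, 3.92 and 3.07 CPM. Both differences passed the test (log2 2.0 and -4.54). Adgrf5, known from lung and vessel lining, fell from 37.2 ± 1.73 to 1.21 ± 0.264 CPM (log2 -4.93).

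Genes that hold cells to each other or to matrix changed in both directions, with deep falls among integrins, desmosomal cadherins and immunoglobulin-type receptors. Itgb5, which pairs with the integrin alpha chain of the vitronectin receptor, stood at 122, 127, 116 and 126 CPM in wild type and 9.19, 10.4, 12 and 11 CPM in the knockout (log2 difference -3.52, SE 0.059, adjusted p = 3.50e-27). Alcam, an immunoglobulin-type adhesion protein, stood at 51.7, 52.7, 59.5 and 44.1 CPM and 4.37, 5.0, 3.92 and 2.94 CPM (log2 difference -3.68, SE 0.12, adjusted p = 3.23e-15). The desmosomal cadherin gene Dsc2 had 922 counts in wild type and 3 in the knockout, a ratio of 305, 95% interval 104 to 1479 (log2 -8.03, and -8.96 without knockout replicate 2). Celsr1, a cadherin of planar polarity, fell from 32.2 ± 2.57 to 7.26 ± 1.58 CPM, beside its polarity partner Ptk7 above. Nrcam fell from 5.62 ± 0.530 to 0.282 ± 0.154 CPM, and Itga8 went from 18.2 ± 0.931 CPM to 0 counts. Others rose: Crtam, known from cytotoxic T cells, went from 0 counts to 7.58 ± 0.514 CPM, the calsyntenin gene Clstn3 had 3 counts in wild type and 645 in the knockout (ratio 217, 95% interval 73.9 to 1055; log2 7.54, and 8.43 without wild-type replicate 12), the protocadherin gene Pcdhgc5 rose from 8.33 ± 0.974 to 25.3 ± 2.38 CPM, and Vcam1, which tethers leukocytes, from 19.9 ± 2.03 to 90.1 ± 16 CPM. Over the lists, integrins were at least 2-fold higher in 2 and lower in 2 of 17, cadherins in 3 and 3 of 13, and immunoglobulin-type receptors in 5 and 6 of 28. None of the 14 tetraspanins reached 2-fold.

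Sele, a selectin of vessel walls, had 5 counts in wild type and 374 in the knockout (ratio 75.5, 95% interval 32.1 to 234; log2 6.12, and 6.91 without wild-type replicate 11). Selplg, the ligand of P-selectin, stood at 1.96, 0, 0 and 0 CPM in wild type, all of it in replicate 9, and at 7.28, 6.09, 6.08 and 3.61 CPM in the knockout. Its log2 difference was 3.52; without replicate 9 the wild type was at 0 and the fitted value, 9.38, rests on the prior count. Every wild-type count came from the library that carried leukocyte transcripts. Of 13 C-type and sialic acid-binding lectin genes (selectins included), 5 were at least 2-fold higher and 2 lower. In signalling between neighbours, Notch1 rose from 19.1 ± 1.55 to 41.6 ± 3.63 CPM, and the heparan sulfate carriers divided, with Sdc2 rising from 5.0 ± 0.894 to 16.8 ± 2.06 CPM and Gpc4 falling from 9.59 ± 1.02 to 2.98 ± 0.468 CPM. Plxna4, a receptor for semaphorins, fell from 22.8 ± 2.25 to 3.56 ± 1.43 CPM, and 5 of 10 plexins and neuropilins were lower against 4 higher.

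Channels and carriers moved by single members. Of 16 potassium channel genes 8 were at least 2-fold lower and 2 higher, but most were weakly expressed, with a median of 1.42 CPM. The one named by rule was Kcnab2, which encodes a cytosolic partner of potassium channels, and stood at 11.9, 9.56, 8.56 and 7.97 CPM in wild type and 56.4, 52.4, 59.7 and 60.2 CPM in the knockout (log2 difference 2.59, SE 0.10, adjusted p = 5.76e-16). Trpm6, a magnesium-permeable channel, rose from 0.967 ± 0.309 to 8.69 ± 0.689 CPM, while the ATP-gated channel gene P2rx3 fell from 6.83 ± 0.544 to 0.907 ± 0.629 CPM. None of the 18 chloride channel and anoctamin genes reached 2-fold, 5 being higher and 8 lower. Of 159 solute carriers outside the mitochondrial SLC25 family, 46 were higher and 83 lower, and 15 and 18 reached 2-fold. Slc2a3, a high-affinity glucose transporter, stood at 1.55, 0.354, 0.0696 and 0.0638 CPM in wild type and 61, 58.4, 58 and 67.7 CPM in the knockout (log2 6.89, and 8.52 without replicate 9, where the highest wild-type value lay). Slc16a3, which exports lactate, did the opposite, at 33.3, 33.1, 27.3 and 33.1 CPM and 0.460, 0.411, 0 and 0.134 CPM (log2 difference -7.0, SE 0.22, adjusted p = 1.18e-16). Slc11a1, a phagosomal metal carrier, rose from 0.423 ± 0.265 to 8.16 ± 1.77 CPM, and Slc9a9, a sodium-proton exchanger of endosomes, went from 6.39 ± 1.11 CPM to 0 counts.

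Among ATP-driven exporters, Abcb1b, which pumps many drugs, rose from 30.5 ± 2.36 to 62.3 ± 9.66 CPM and Abca8b fell from 46.4 ± 1.82 to 19.9 ± 0.449 CPM. The sorting receptor gene Sorl1 stood at 66.4, 70.9, 64.1 and 70.2 CPM in wild type and 7.35, 6.37, 7.47 and 6.88 CPM in the knockout (log2 difference -3.27, SE 0.064, adjusted p = 9.88e-26). Scara5, a scavenger receptor for ferritin, had 617 counts in wild type and 3 in the knockout, a ratio of 204, 95% interval 69.4 to 991. No member of 22 tested Toll-like, LDL-type, sortilin and scavenger receptors was at least 2-fold higher and 5 were lower. Enzymes that face outward changed often, 5 of 17 at least 2-fold higher and 5 lower, or 3 lower without wild-type replicate 9. The aminopeptidase gene Anpep stood at 0.338, 0.425, 0.487 and 0.255 CPM in wild type and 86.1, 78.4, 87.7 and 103 CPM in the knockout, and the angiotensin-converting enzyme gene Ace rose from 9.65 ± 0.577 to 31.3 ± 3.55 CPM. Cd38, which consumes NAD, fell from 21 ± 0.772 to 9.01 ± 1.32 CPM and Enpp5 from 8.17 ± 0.625 to 2.35 ± 0.796 CPM.

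**Figure D3:**
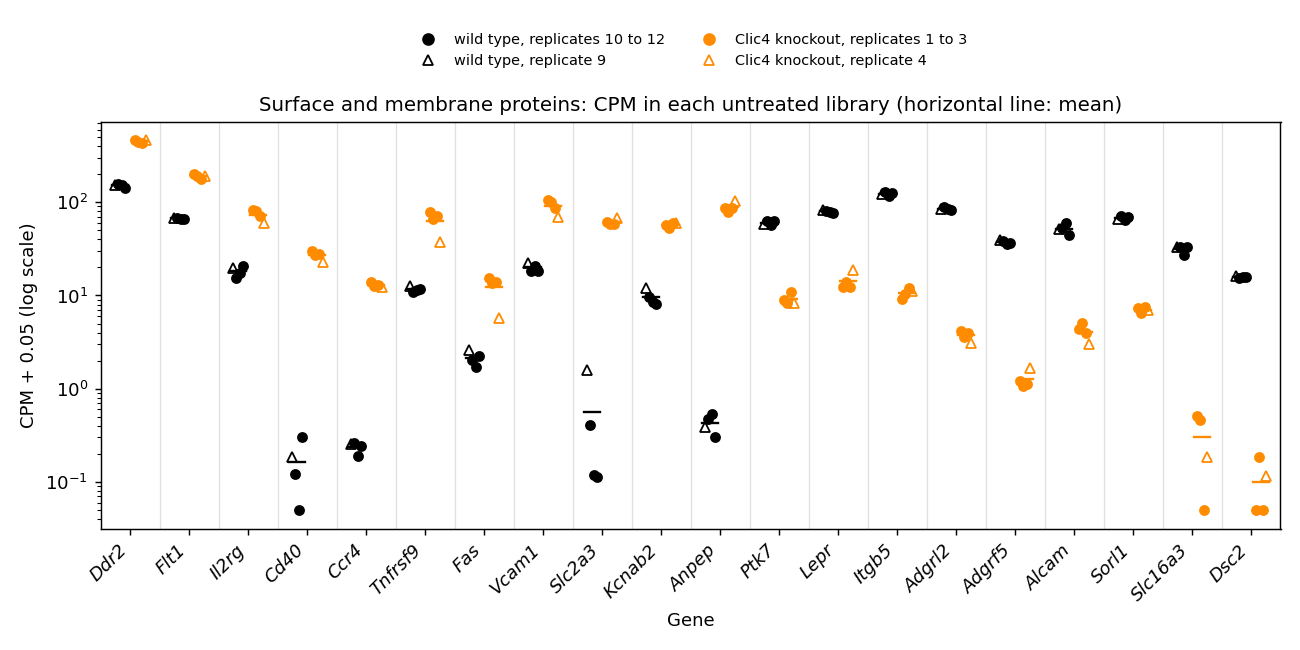
CPM plus 0.05 on a log axis (y) of 20 surface and membrane proteins (x) in each untreated library; black is wild type, orange is Clic4 knockout, open triangles are wild-type replicate 9 and knockout replicate 4, and horizontal lines are group means. The first 11 genes are higher and the last 9 lower in every knockout library; Slc2a3 has its highest wild-type value in replicate 9, and Fas its lowest knockout value in replicate 4.

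Genes of inflammatory secreted signals were more often higher than lower. Of 15 tested chemokines 10 were higher and 2 lower, and of 25 interleukins and related cytokines 16 were higher and 6 lower. Over all genes 33.9% were higher and 32.9% lower. Many of these genes were weakly expressed, with medians of 2.1 CPM for chemokines and 6.89 CPM for interleukins. Among those that reached 5 CPM in the higher genotype, 4 of 6 and 5 of 13 were at least 2-fold higher and 0 lower. Cxcl1, which draws neutrophils, stood at 10.1, 9.35, 15.1 and 14.6 CPM in wild type and 779, 651, 699 and 177 CPM in the knockout (log2 difference 5.55, SE 0.47, adjusted p = 4.50e-07), and Ccl7, which draws monocytes, at 1.55, 0.921, 1.18 and 1.34 CPM and 33.9, 35, 28 and 8.88 CPM. Csf3, the growth factor of granulocytes, stood at 1.35, 0.921, 1.25 and 1.15 CPM and 55.4, 38.1, 49.1 and 6.68 CPM (log2 4.98, and 5.33 without knockout replicate 4). Replicate 4 was the lowest knockout library for all 3, by more than 2-fold each, and was above every wild-type library. Tnfsf13b, which keeps B cells alive, had 3 counts in wild type and 1061 in the knockout (ratio 357, 95% interval 122 to 1734; log2 8.26, and 9.19 without wild-type replicate 9), and there replicate 4 was the highest. Spp1, osteopontin, a phosphoprotein of bone and tumour stroma, stood at 715, 762, 808 and 782 CPM in wild type and 2545, 2989, 2816 and 2377 CPM in the knockout (log2 difference 1.81, SE 0.076, adjusted p = 2.82e-11).

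Ligands of developmental pathways also changed. All 6 tested WNT genes changed at least 2-fold, 4 up and 2 down (1 down without knockout replicate 4). Only 3 of them reached 5 CPM in the higher genotype, 2 up and 1 down. Wnt10a had 1 count in wild type and 713 in the knockout (ratio 719.6, 95% interval 129 to 28461; the count lay in wild-type replicate 9, without which wild type is at 0), and Wnt5b rose from 2.48 ± 0.642 to 5.88 ± 1.02 CPM. Wnt7b, a ligand known from lung and mammary epithelium, stood at 86.2, 86, 84.7 and 91.1 CPM in wild type and 28.6, 27.6, 28 and 31.2 CPM in the knockout (log2 difference -1.59, SE 0.053, adjusted p = 2.07e-20). The BMP-binding protein gene Twsg1 rose from 101 ± 1.98 to 217 ± 13.1 CPM, and the BMP ligand gene Bmp7 had 322 counts in wild type and 9 in the knockout (ratio 35.5, 95% interval 18.4 to 78.2). Gdf15, a stress-induced member of the same superfamily, went from 0 counts in every wild-type library to 17, 17.5, 24.2 and 9.88 CPM, at least 339-fold higher with the wild-type group at 3 counts. The EGF receptor ligand gene Areg, a factor of mammary duct growth, rose from 25.3 ± 2.22 to 58 ± 7.0 CPM (log2 difference 1.2, SE 0.076, adjusted p = 1.97e-12). Pleiotrophin, Ptn, had 2 counts in wild type and 439 in the knockout (ratio 222, 95% interval 61 to 1835). Angpt4 fell from 8.16 ± 0.473 to 1.92 ± 0.895 CPM and Angptl6 from 21.2 ± 2.94 to 10.2 ± 1.11 CPM.

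Igfbp6, which binds insulin-like growth factor II, stood at 2.3, 2.27, 1.67 and 1.85 CPM in wild type and 89.8, 92.8, 112 and 84.1 CPM in the knockout (log2 difference 5.55, SE 0.12, adjusted p = 4.68e-20). The CCN proteins Ccn1 and Ccn2, both known targets of YAP, parted: Ccn1 rose from 9.6 ± 0.897 to 21.9 ± 4.34 CPM (log2 1.19) and Ccn2 fell from 5.59 ± 0.822 to 0.720 ± 0.305 CPM (log2 -2.92). Guidance cues were exchanged too. Sema3b stood at 4.32, 4.53, 3.48 and 6.0 CPM in wild type and 51.6, 51.8, 58.4 and 60.5 CPM in the knockout (log2 difference 3.59, SE 0.10, adjusted p = 4.05e-19), while Sema3c of the same class stood at 31.8, 36.1, 32.8 and 32.2 CPM and 0.536, 0.958, 1.01 and 0.868 CPM (log2 difference -5.27, SE 0.14, adjusted p = 9.18e-23). Netrin, Ntn1, rose from 2.81 ± 0.343 to 33.6 ± 3.81 CPM (log2 3.57) and Slit2 fell from 20.8 ± 1.58 to 0.50 ± 0.126 CPM (log2 -5.37). Over the 22 semaphorins, netrins and slits, membrane-bound ones included, 6 were at least 2-fold higher and 6 lower.

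Of 27 matricellular and elastic fibre genes 19 were higher and 2 lower, and 12 were at least 2-fold higher against 1 lower (2 lower without knockout replicate 4), with a list median log2 of 0.82 against 0.0028 over all genes. Thbs2, a thrombospondin that binds many matrix partners, stood at 0.810, 0.283, 0.696 and 0.702 CPM in wild type and 65.6, 59.4, 62.9 and 66.4 CPM in the knockout (log2 difference 6.64, SE 0.12, adjusted p = 6.95e-27), and Mmrn2 had 3 counts against 352 (ratio 118, 95% interval 40.2 to 577). Fibronectin, Fn1, stood at 35.3, 33.6, 34.1 and 36 CPM and 267, 244, 255 and 165 CPM (log2 difference 2.74, SE 0.14, adjusted p = 3.51e-09), and the calcification inhibitor gene Mgp at 2.7, 2.83, 3.83 and 3.06 CPM and 87.7, 95, 90.4 and 69.3 CPM; both were named after their values were seen. Per gene length, Sparc was the highest of this list in both genotypes, at a mean of 179.8 RPKM in wild type and 181 RPKM in the knockout, and its difference did not pass the test (log2 0.043, adjusted p = 0.459). Mgp was at 3.36 and 90.6 RPKM and Fn1 at 2.31 and 15.1 RPKM. The 1 member at least 2-fold lower was Loxl4, a crosslinking oxidase, which fell from 127 ± 7.47 to 54.1 ± 3.7 CPM (log2 -1.22).

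Collagens and basement membrane genes went both ways. Col6a1 rose from 0.324 ± 0.126 to 7.88 ± 2.0 CPM while Col6a3, which encodes another chain of the same collagen, fell from 9.68 ± 1.81 to 4.51 ± 0.985 CPM. Col8a1 had 2 counts in wild type and 863 in the knockout (ratio 435, 95% interval 120.2 to 3602; both counts lay in wild-type replicate 11, without which wild type is at 0), with 9.68 CPM in replicate 4 against 16.3 CPM or more in the other 3. The anchoring fibril collagen gene Col7a1 fell from 74.6 ± 8.12 to 31 ± 4.45 CPM (log2 -1.27). Lama3 and Lamb3 encode chains of the laminin that anchors stratified and glandular epithelia. Lama3 fell from 6.22 ± 0.701 to 0.242 ± 0.0937 CPM and Lamb3 from 129.8 ± 9.01 to 11.1 ± 1.35 CPM (log2 difference -3.55, SE 0.076, adjusted p = 3.80e-21). Nephronectin, Npnt, stood at 2.16, 2.69, 2.23 and 3.0 CPM and 42.1, 42.1, 42.7 and 37.3 CPM (log2 difference 4.02, SE 0.092, adjusted p = 3.77e-24); it is a ligand of the integrin that contains Itga8, which was at 0 counts in the knockout. The granule proteoglycan gene Srgn rose from 17.9 ± 2.44 to 135 ± 5.26 CPM (log2 difference 2.92, SE 0.059, adjusted p = 1.63e-25) and Hapln4 fell from 11.1 ± 0.759 to 1.32 ± 0.403 CPM.

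Secreted enzymes and their inhibitors changed as well. Of 23 matrix metalloprotease, ADAMTS and TIMP genes 13 were higher and 7 lower. Mmp3 rose from 96.3 ± 5.77 to 304 ± 24.5 CPM and Adamts1 from 14.5 ± 0.493 to 58.5 ± 4.09 CPM, while Mmp28 fell from 30.6 ± 2.88 to 12.6 ± 1.22 CPM and Adamtsl4 from 16.6 ± 1.96 to 7.28 ± 0.540 CPM. Serpins, which trap proteases, were at least 2-fold higher in 7 and lower in 6 of 20. Serpina3n had 13 counts in wild type and 613 in the knockout (0.224 ± 0.122 to 10.5 ± 1.15 CPM), and Serpinb1a rose from 0.830 ± 1.07 to 13.3 ± 1.72 CPM, with its highest wild-type value, 2.43 CPM, in replicate 9 (log2 3.98, and 5.45 without it). The granzyme-inhibitor relatives Serpinb9c and Serpinb9g fell from 9.74 ± 1.31 to 1.18 ± 0.561 CPM and 12.9 ± 0.395 to 2.19 ± 0.285 CPM; they belong to a cluster of near-copies, and like other clade B serpins and galectins they lack a classical export signal. In the clotting path, tissue factor, F3, fell from 6.93 ± 1.43 to 0.90 ± 0.230 CPM while its counterweight thrombomodulin, Thbd, rose from 1.1 ± 0.0740 to 8.53 ± 1.19 CPM. Complement C3 stood at 7.29, 0.283, 0.696 and 1.02 CPM in wild type and 42.4, 29.98, 38 and 9.41 CPM in the knockout. The highest wild-type library was replicate 9 and the lowest knockout library replicate 4, with a log2 difference of 3.67 in all libraries and 5.74 without both, and the groups did not overlap. C1ra rose from 13 ± 1.13 to 26.7 ± 5.51 CPM.

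Small secreted proteins of epithelia split as well. Slpi, a protease inhibitor of mucosal fluids, rose from 73.1 ± 3.9 to 244 ± 49.97 CPM and its relative Wfdc2 stood at 43.9, 42.1, 39.9 and 41.7 CPM in wild type and 3.22, 2.67, 2.47 and 2.2 CPM in the knockout (log2 difference -3.99, SE 0.09, adjusted p = 2.39e-24). The galectin gene Lgals7, known from skin and other layered epithelia, rose from 1.2 ± 0.0695 to 226 ± 17 CPM, while Lgals9 fell from 103 ± 7.48 to 47.6 ± 4.93 CPM. S100a16 had 6 counts in wild type and 533 in the knockout (ratio 89.7, 95% interval 40.9 to 245; log2 6.37, and 8.19 without wild-type replicate 9). S100a8 stood at 29.4, 3.54, 2.85 and 2.93 CPM in wild type and 1.15, 1.78, 1.2 and 1.34 CPM in the knockout. Its log2 difference of -2.82 became -1.18 without replicate 9, and with only the 8 untreated libraries in the fit it did not pass (adjusted p = 0.0734). Of the lipid-handling genes, endothelial lipase, Lipg, rose from 114 ± 3.72 to 329 ± 13.6 CPM and the transfer protein gene Pltp from 80.02 ± 4.91 to 209.7 ± 15.9 CPM. Lipoprotein lipase, Lpl, fell from 50.5 ± 1.59 to 1.78 ± 0.482 CPM (log2 difference -4.81, SE 0.095, adjusted p = 1.01e-25), and Apol9b, which has a near-copy, from 69.1 ± 3.93 to 18.9 ± 1.59 CPM. The cysteine protease inhibitor gene Cstb fell from 319 ± 9.08 to 141 ± 5.26 CPM, and Stfa3, of a cluster of near-copies, rose from 0.965 ± 0.706 to 9.34 ± 2.95 CPM.

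**Figure D4:**
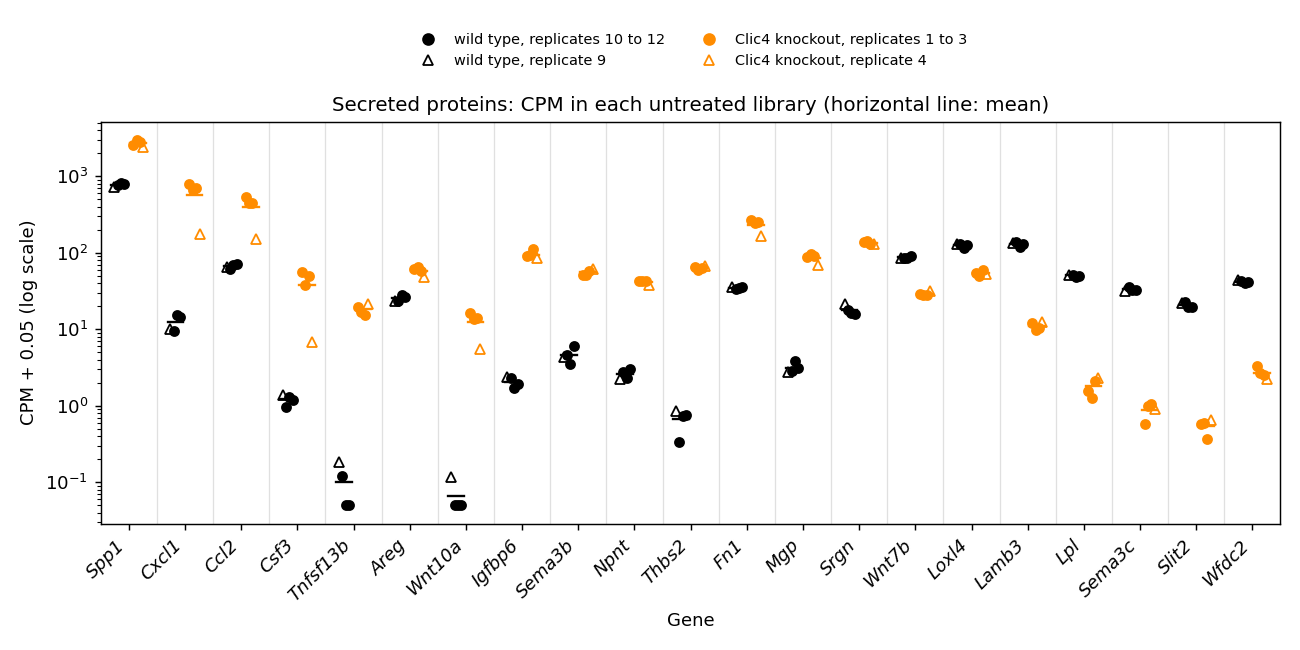
CPM plus 0.05 on a log axis (y) of 21 secreted proteins (x) in each untreated library; black is wild type, orange is Clic4 knockout, open triangles are wild-type replicate 9 and knockout replicate 4, and horizontal lines are group means. The first 14 genes are higher and the last 7 lower in every knockout library; for Cxcl1, Ccl2 and Csf3 knockout replicate 4 lies well below the other 3.

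Inside the cell, prostaglandin and leukotriene enzymes changed in both directions, 4 of 10 being higher and 3 lower, with 3 and 2 at 2-fold. The counts at any fold were near the shares of all genes, 33.9% higher and 32.9% lower. Ptgs2, the inducible cyclooxygenase, stood at 58.8, 52.4, 58 and 45 CPM in wild type and 198, 203, 173 and 86.3 CPM in the knockout (log2 difference 1.62, SE 0.22, adjusted p = 4.18e-05; log2 1.84 without knockout replicate 4, the lowest), and Ptges, the synthase that follows it, at 24, 23.5, 20.1 and 23.4 CPM and 188, 165, 172 and 146 CPM (log2 difference 2.88, SE 0.068, adjusted p = 2.59e-19). Ptgr1, which inactivates leukotriene B4 and prostaglandins, fell from 9.38 ± 0.710 to 2.54 ± 0.540 CPM, and Aloxe3, a skin lipoxygenase relative, from 12.8 ± 2.22 to 0.901 ± 0.289 CPM. Cyp11a1, the enzyme that begins steroid hormone synthesis, stood at 0.878, 0.354, 0.348 and 0.446 CPM and 68.2, 61.4, 57.3 and 58.3 CPM (log2 difference 6.89, SE 0.13, adjusted p = 3.59e-26). Of 12 tested cytochromes P450 it was the 1 that was at least 2-fold higher, and 1 was at least 2-fold lower, or 2 without knockout replicate 4 and 3 without wild-type replicate 11.

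Glutathione S-transferases, the enzyme family whose fold CLIC4 shares, were mostly lower: 13 of 20 against 5 higher, and 8 against 1 at 2-fold, with a list median log2 of -0.66. Gsta1 stood at 184, 180.4, 169 and 161 CPM in wild type and 13, 13.6, 12.8 and 13.8 CPM in the knockout (log2 difference -3.7, SE 0.06, adjusted p = 1.69e-27), and Gsta4 fell from 9.86 ± 1.02 to 1.61 ± 0.215 CPM. Gsta1 has a near-copy that can share its reads. The aldo-keto reductase gene Akr1b7 fell from 11.2 ± 1.57 to 2.04 ± 0.557 CPM. Golgi glycosyltransferases, which build sugar chains, were lower in 34 of 51 and higher in 12. B4galt6, which makes lactosylceramide, had 669 counts in wild type and 10 in the knockout (ratio 66.3, 95% interval 35.8 to 139), and the sialyltransferase gene St3gal6 fell from 11.3 ± 0.655 to 1.09 ± 0.367 CPM. B3gnt9 rose from 1.03 ± 0.247 to 14.9 ± 0.551 CPM and B4galt2 from 3.02 ± 0.654 to 7.43 ± 0.992 CPM. Of sulfate-adding enzymes, Chst12 rose from 32.7 ± 2.66 to 78.3 ± 5.6 CPM, while Chst2 fell from 8.61 ± 1.83 to 2.57 ± 0.572 CPM and Hs6st1 from 9.48 ± 0.871 to 3.89 ± 0.703 CPM.

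Interferon-inducible defence families divided by member. Of 28 Schlafen, GBP, IRG and IFI200 genes 21 were lower and 4 higher. Gbp9 fell from 31.1 ± 4.7 to 8.76 ± 1.72 CPM and Gbp4 from 14.3 ± 1.55 to 4.15 ± 0.660 CPM, whereas Slfn8 rose from 2.91 ± 0.623 to 13.8 ± 1.06 CPM and Ifi205 from 5.17 ± 0.727 to 11 ± 0.589 CPM. These families hold near-copies, so reads of single members are uncertain. Of 19 caspases, gasdermins and NOD-like receptors 12 were higher and 4 lower. Nlrp10 rose from 1.07 ± 0.40 to 12.3 ± 1.53 CPM, and Casp4, a sensor of intracellular lipopolysaccharide, from 1.34 ± 0.435 to 14.7 ± 4.23 CPM; Casp4 was at 8.35 CPM in knockout replicate 4 against 16.1 CPM or more in the others.

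Second-messenger and cytoskeletal genes changed by isoform. Of 9 phosphodiesterases, Pde4b rose from 1.89 ± 0.309 to 10.3 ± 2.48 CPM and Pde1b from 2.11 ± 0.578 to 5.44 ± 0.993 CPM, whereas Pde8a stood at 63.1, 62.1, 58.6 and 63.1 CPM in wild type and 10.1, 7.67, 8.54 and 11.5 CPM in the knockout (log2 difference -2.71, SE 0.074, adjusted p = 2.20e-22) and the cGMP-specific Pde5a fell from 45 ± 0.976 to 18.7 ± 1.59 CPM. Plcd1 rose from 0.521 ± 0.133 to 6.88 ± 0.726 CPM and the protein kinase C gene Prkcb from 2.5 ± 0.818 to 9.83 ± 1.73 CPM, Prkd1 fell from 9.36 ± 2.67 to 3.5 ± 0.886 CPM, and Plcl1 went from 8.71 ± 0.528 CPM to 0 counts. The regulators Rgs12 (7.55 ± 0.774 to 15.5 ± 0.656 CPM) and Rgs17 (7.03 ± 0.573 to 15.8 ± 0.744 CPM) rose. No Rab GTPase of 48 was at least 2-fold higher, and 1 was without knockout replicate 1 or wild-type replicate 9. Among small GTPase genes, Rhou fell from 71.2 ± 1.23 to 35.1 ± 2.62 CPM, Rab32 from 22.5 ± 0.911 to 6.28 ± 0.353 CPM and Rab6b from 38.1 ± 1.74 to 11.3 ± 0.812 CPM. Of the exchange factors and GAPs of small GTPases, Plekhg5 (4.75 ± 0.736 to 15 ± 1.04 CPM) and Arhgap9 (1.23 ± 0.641 to 7.45 ± 0.828 CPM) rose and Arhgef10 (39 ± 1.48 to 14.7 ± 2.01 CPM) fell. In the Ras family Diras1 rose from 2.27 ± 0.691 to 7.24 ± 0.826 CPM and Rassf5 fell from 22.9 ± 1.64 to 10.6 ± 1.34 CPM.

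Cytoskeletal genes went both ways. Of 44 kinesins and dyneins 17 were higher and 21 lower, with 5 and 4 at 2-fold, and of 30 septins, tubulins and non-keratin intermediate filaments 17 were higher and 7 lower. Tubb5, the main beta tubulin of proliferating cells, stood at 705, 665, 672 and 641 CPM in wild type and 1819, 1749, 1761 and 1392 CPM in the knockout (log2 difference 1.32, SE 0.063, adjusted p = 5.13e-12), and the mitotic kinesin gene Kif15 rose from 18.3 ± 2.78 to 49 ± 4.09 CPM. Tuba8 fell from 15.1 ± 1.11 to 5.96 ± 0.625 CPM. The septins Sept4 and Sept5 moved oppositely, from 3.21 ± 0.720 to 14.7 ± 1.35 CPM and from 45.3 ± 3.61 to 15.9 ± 2.2 CPM, and Sync, which links intermediate filaments in muscle, rose from 3.5 ± 0.764 to 20.8 ± 3.39 CPM. The axonemal dynein gene Dnah2 rose from 1.31 ± 0.312 to 15.2 ± 0.499 CPM and Dynlt1c, of a cluster of near-copies, fell from 6.2 ± 0.960 to 2.87 ± 0.527 CPM. Among keratins, Krt19 rose from 54.2 ± 4.09 to 156 ± 6.23 CPM and Krt18 fell from 334 ± 1.65 to 153 ± 4.89 CPM, while their partner Krt8 stayed within 611 to 674 CPM (log2 0.0074, adjusted p = 0.868).

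Genes under imprinting or germline restriction showed isolated large changes. Impact, an imprinted regulator of translation, stood at 119, 116, 128 and 121 CPM in wild type and 5.97, 5.68, 5.51 and 6.08 CPM in the knockout (log2 difference -4.38, SE 0.063, adjusted p = 1.42e-28), and the imprinted splicing gene Snrpn fell from 15.1 ± 1.05 to 5.16 ± 0.131 CPM. In the germline list 7 of 22 genes were at least 2-fold higher and 3 lower, with Xlr3a, of a cluster of near-copies on the X chromosome, rising from 1.21 ± 0.519 to 13.9 ± 1.92 CPM and the Piwi gene Piwil4 from 3.52 ± 0.505 to 8.04 ± 1.28 CPM. The tripartite motif genes Mid2 and Trim44 went from 20.2 ± 1.21 CPM and 12.1 ± 0.918 CPM to 0 counts.

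By absolute amount, translation factors and chaperones stood among the largest shifts. The 8 genes with the largest gain in CPM were Eef1a1, Spp1, Vim, Eef2, Hspa8, Npm1, Tubb5 and Pabpc1, and the 8 with the largest loss were mt-Cytb, Hsp90b1, Ftl1, Hspa5, Calr, mt-Nd4, mt-Nd5 and Pdia3. The translation factor genes Eef1a1 and Eef2 rose by 2738 and 1360.1 CPM, which is a log2 difference of 0.18 and 0.33. Pabpc1, which coats poly(A) tails, rose from 2243 ± 26.8 to 3161 ± 36.6 CPM, the nucleolar chaperone gene Npm1 from 2440.4 ± 133 to 3535 ± 187 CPM and the cytosolic chaperone gene Hspa8 from 1971 ± 75.2 to 3193 ± 166 CPM. Among the losses, Hsp90b1, Hspa5, Calr and Pdia3 are folding proteins of the endoplasmic reticulum: Hspa5 fell from 3809 ± 216 to 2605 ± 90.7 CPM and Pdia3 from 2670.4 ± 67.2 to 1761 ± 139.8 CPM. Ftl1, the ferritin light chain, fell from 4419 ± 163 to 3116 ± 255 CPM. The mitochondrial transcripts differed more between wild-type libraries than these: mt-Cytb stood at 3866, 3705, 5242 and 5040.2 CPM in wild type and 2289, 2917, 2426 and 2797 CPM in the knockout.

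The changes were spread over the autosomes and the X. The median log2 difference per chromosome lay between -0.05 and 0.044 over the autosomes and the X, and the share of genes changed at least 2-fold between 9.51% (chromosome 8) and 16% (chromosome 1). Values of whole chromosomes cannot show smaller blocks of genes. Of the 15 tested mitochondrial genes 9 were lower and 0 higher, with a median log2 of -0.36 and 0 at 2-fold.

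The 7 libraries given H2O2 offer the same genotype comparison in other samples, whose levels did not enter the differences above. With H2O2, 8558 of 13085 genes (65.4%) differed between the genotypes. Of the 1745 genes that changed at least 2-fold without H2O2, 1730 had the same sign with H2O2, 1654 of them also passed the test there and 1552 were again at least 2-fold, while 15 had the other sign. All 85 transcription factors kept their sign (83 passed), as did all 164 surface proteins (157), 153 secreted proteins (149) and 148 members of intracellular families (147). These treated libraries come from the same cell lines as the untreated ones, so a difference between clones is shared by both.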

How the data were processed

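Polyadenylated RNA of 6DT1 cells was sequenced as read pairs from stranded libraries, per the labels' protocols. The deposited expected counts per gene symbol, all whole numbers, and the deposited RPKM values were made by the authors with cutadapt, STAR and RSEM on mm10, per the submitters' processing notes, without versions. Totals were 13.27 to 16.03 M counts in the 8 untreated libraries. Counts were tested with edgeR 4.0.16 in R 4.3.3 (filterByExpr, TMM scaling, robust quasi-likelihood fit of 4 group means over 15 libraries, 11 residual degrees of freedom). Benjamini-Hochberg adjustment ran over 13085 genes, and genes under 0.05 were called. All adjusted p come from that test unless another tool is named. SE is approximate, the absolute log2 difference divided by the square root of F. Intervals of count ratios are exact binomial, and these and bounds at 3 counts cover counting error only. RPKM served for levels between genes. The script was tested on simulated data.

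Families were defined by symbol patterns and follow family names, so a list can hold a member with another location. Members and lists were chosen with earlier results of these data known, and a pair of list errors was corrected after the values were seen. Genes were named by rule: in each list up to 2 highest and 2 lowest log2 differences among called genes with at least 5 CPM in the higher genotype, 2-fold change and no overlap of replicates, plus the 8 largest gains and 8 largest losses in CPM, and Clic4. Of the genes that the rule named, 2 are not reported here. Marker genes and promoter genes came from their own lists. Ccl2, Fn1, Irf9, Mgp, Rel, Sparc and Tnfrsf9 were named after their values were seen. Alternatives were other scalings, filters, DESeq2 1.42.0, a fold threshold, the 8 untreated libraries alone and each library left out. Figures used matplotlib 3.10.9. The annotation was GENCODE M21 and promoters came from RefSeq (GRCm38.p6).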

Additional observations from a re-analysis of the deposited data

Results flagged for a closer look

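For each gene named above, the 4 libraries of each genotype were screened for 1 that lay far from the other 3 by Dixon's ratio of gap to range. Of 458 such groups 42 stood out, where chance gives about 1 in 20.

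Knockout replicate 4 was far below its group for C1ra (18.5 CPM), Casp4 (8.35), Gbp5 (0.734), Ccn1 (15.5), Col8a1 (9.68), Npnt (37.3) and Tubb5 (1392 CPM), and far above it for Irf7 (23), Lgals9 (55), S100a16 (11.1) and Sparc (633 CPM). Wild-type replicate 9 was far above its group for S100a8 (29.4 CPM), C3 (7.29), Itgam (6.48), Serpinb1a (2.43), Selplg (1.96), B4galt6 (13.6), and Wnt10a and Tnf (0.0675 CPM each, 1 count), and far below it for Cxcl2 and Cxcl3 (0 CPM). These 2 libraries made up 21 of the 42.

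The rest were spread over the other 6 libraries. Knockout replicate 1 was high for Foxp1 (64 CPM) and Sele (9.80) and low for Nr4a1 (4.37), replicate 2 was high for St3gal6 (1.64), and replicate 3 was low for Gbp4 (3.16), Trpm6 (7.66) and Scara5 (0). Wild-type replicate 10 was high for Plcl1 (9.49 CPM) and Zfp518b (7.86) and at 0 for Mmrn2. Replicate 11 was high for Npm1 (2638 CPM) and Col8a1 (0.139) and low for Chst12 (28.7), Ephb6 (6.47), Pcdhgc5 (6.89), Ptges (20.1) and Slc16a3 (27.3). Replicate 12 was high for Angpt4 (8.87 CPM) and low for Akr1b7 (8.87), Gata2 (25.8) and Kif15 (14.2).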

How the results depend on the processing

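The number of genes that differed was 8200 to 9135 under the other scalings, filters, tools and with only the 8 untreated libraries, and 8399 to 8682 when each library was left out. Leaving out wild-type replicate 9 and knockout replicate 4 together, an alternative chosen after the data were seen, gave 8469. The median log2 difference of all genes moved by less than 0.1 under every scaling. A test against a 1.5-fold threshold (edgeR's glmTreat) called 2209 genes, 1165 higher and 1044 lower, among them 95 transcription factors, 199 surface proteins, 164 secreted proteins and 188 members of intracellular families. Without a low-count filter, 60 transcription factors and 150 surface proteins were at least 2-fold lower. No named gene that passed the test changed direction. Sparc and Krt8, which did not pass, changed sign between fits. With 1 library left out their log2 differences ran from -0.028 to 0.072 and from -0.027 to 0.024. Besides that threshold, under which 16 of 229 named genes no longer passed, S100a8 lost its call with only the untreated libraries, where Ccl20, Cxcl3 and Ifi214 were not tested. Ifi214 was not tested either with at least 1 CPM in 4 libraries, and S100a8 had no adjusted p under DESeq2. Itgam passed only where wild-type replicate 9 was left out, alone or with knockout replicate 4. The other named genes kept their call. Of 190 family counts at 2-fold, 47 moved by over 1.5 times without a low-count filter, 32 under DESeq2, 15 with only the untreated libraries, 13 with at least 1 CPM in 4 libraries, 11 without knockout replicate 4, 9 without wild-type replicate 9 and 18 without both, so counts of single families depend on the settings. No paired analysis was possible because the groups share no replicate numbers. Depth limits weak genes: at 3 counts or fewer in a group a bound or a counting interval is given for some genes. For others only the levels are given. Fitted log2 values printed for such genes depend in part on the prior count.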
